A study of Mus musculus with 24 samples.

Results

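The 10 genes described here encode the enzymes that make, elongate and desaturate fatty acids, together with the transcription factor gene Srebf1. They were chosen by symbol (Srebf1, Acly, Acaca, Acacb, Fasn, Scd1, Scd2, Elovl6, Fads1 and Fads2), out of 54532 gene identifiers in the count files, and all 10 passed the filter on low counts. Expression was measured by bulk RNA sequencing of 24 mouse kidney libraries, 6 in each of 4 groups. The groups are proximal tubule cell-specific Lrp2 knockout (KO) after 2 weeks of Western diet, wild type (WT) after 2 weeks of the same diet, KO after 12 weeks and WT after 12 weeks. All 4 groups received the Western diet, a fat-rich rodent feed, so no value here is from a mouse on another diet. The labels call the mice LRP2-SM22, -/- or +/+, without explaining that name. No source used here gives the Cre driver, the strain or the age of the mice. Lrp2 encodes megalin, the receptor by which proximal tubule cells take filtered proteins back up, and the series title names tubulointerstitial nephritis. Whether the 6 libraries of a group stand for 6 mice is not stated in the labels, and p-values here cover the spread between libraries only.

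Fatty acid synthesis starts in the cytosol, where acetyl-CoA is carboxylated to malonyl-CoA and then built up to palmitate, which is elongated and desaturated at the endoplasmic reticulum. SREBP-1, the product of Srebf1, is held in the membrane as a precursor and activates most of these genes once its cleaved part reaches the nucleus, so its RNA level need not follow its activity. The proximal tubule is known as a tissue that mainly burns fatty acids, whereas adipocytes, which surround the kidney and its pelvis, carry high levels of the synthetic enzymes.

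Positions are given on mm10. Srebf1 (ENSMUSG00000020538) lies on chromosome 11, 60199089 to 60222581, minus strand. On the same chromosome lie Acly (ENSMUSG00000020917, 100476353 to 100528000, minus strand), Acaca (ENSMUSG00000020532, 84129672 to 84401651, plus strand) and Fasn (ENSMUSG00000025153, 120805846 to 120824547, minus strand). Acacb (ENSMUSG00000042010) is on chromosome 5, 114146535 to 114250761, plus strand, and Elovl6 (ENSMUSG00000041220) on chromosome 3, 129532355 to 129638495, plus strand. The desaturase genes are on chromosome 19, with Scd1 (ENSMUSG00000037071, 44394455 to 44407879, minus strand) near Scd2 (ENSMUSG00000025203, 44293674 to 44306864, plus strand). Fads2 (ENSMUSG00000024665, 10062765 to 10101746, minus strand) lies near Fads1 (ENSMUSG00000010663, 10182888 to 10196877, plus strand).

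Several members share sequence with other genes, and no source used here says how the counting treated reads that match more than 1 place. Of the distinct 50-base stretches of the Acaca transcripts, 29.2% also occur in the processed pseudogene Gm5182, which held 48 to 155 counts per library. Acaca itself held 194 to 1210 counts per library, so its values are uncertain to that extent. Scd1 shares 2.97% of its 50-base stretches with Scd2, and 4.56% with any other gene. Srebf1 shares 109 exonic bases with Rai1 on the opposite strand, and Elovl6 shares 34 with the antisense gene Gm35986, while no source used here states whether the counting used strand. Acly, Acacb, Fasn and Fads1 shared no 50-base stretch with another gene. Counts per gene do not separate the Srebf1 transcripts that start at different promoters.

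Windows before RefSeq gene starts (GRCm38.p6, the same assembly as mm10) were found for 7 of the 10 members, with none for Scd1, Scd2 and Fads1. Those of Acaca and Acacb and 2 of the 3 for Srebf1 lie within the gene spans given above, and 243 of the 250 bases of the Fads2 window are exonic, so they are not used here. The sequences of 3 genes are shown because they differ in direction after 2 weeks: Fasn fell in KO, Elovl6 rose, and Acly did not pass the test. Each runs from 5′ to 3′ toward the start of the gene, on the strand of the gene, and ends at the base before the annotated transcript. Capitals mark CCAAT, the NF-Y box, and GGGCGG, the GC box bound by Sp1, on either strand. The Fasn window is chr11:120824548-120824797, minus strand, the Acly window chr11:100528001-100528250, minus strand, and the Elovl6 window chr3:129532136-129532354, plus strand, part of which is also an exon of the antisense gene Gm35986.
Fasn: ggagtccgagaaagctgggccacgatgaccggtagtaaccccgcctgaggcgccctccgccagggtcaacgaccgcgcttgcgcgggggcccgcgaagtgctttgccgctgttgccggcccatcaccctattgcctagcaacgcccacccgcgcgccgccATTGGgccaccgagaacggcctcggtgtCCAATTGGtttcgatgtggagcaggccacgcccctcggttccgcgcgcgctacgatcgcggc
Elovl6: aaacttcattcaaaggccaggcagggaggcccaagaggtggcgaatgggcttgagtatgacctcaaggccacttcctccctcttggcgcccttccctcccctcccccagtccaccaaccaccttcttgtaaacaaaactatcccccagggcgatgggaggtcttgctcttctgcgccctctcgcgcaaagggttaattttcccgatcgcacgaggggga
Acly: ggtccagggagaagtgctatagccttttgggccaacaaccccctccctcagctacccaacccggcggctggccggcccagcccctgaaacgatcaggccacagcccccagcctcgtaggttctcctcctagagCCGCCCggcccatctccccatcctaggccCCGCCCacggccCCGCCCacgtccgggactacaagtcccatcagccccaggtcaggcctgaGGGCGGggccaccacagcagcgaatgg
Fasn held 3 NF-Y boxes, 2 of them overlapping, at 90, 62 and 59 bases before the start. Acly held 4 GC boxes and Elovl6 held neither motif. In 32851 RefSeq windows of 250 bases before a gene start, 33.8% held CCAAT and 32.7% held GGGCGG on either strand. The sterol response element TCACNCCAC (1.05% of windows) and the palindromic E-box CACGTG (6.02%) were absent as written from the 3 windows shown. These matches describe the letters only.

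Total counts ran from 15.6 to 34.06 megacounts per library at 2 weeks and from 11.33 to 15.24 megacounts at 12 weeks, with no overlap. Levels are given in CPM, that is, counts per megacount after TMM scaling of the library. Lrp2 ran from 192 to 584 CPM in KO and from 1590 to 2290 CPM in WT at 2 weeks, and from 186 to 390 CPM in KO and from 1410 to 2500 CPM in WT at 12 weeks. The KO mean was thus 0.176 and 0.172 of WT. Kidney identity was present in all groups: 10 proximal tubule markers summed to 6980 to 11300 CPM in KO and 12800 to 16800 CPM in WT at 2 weeks, and to 7360 to 11200 CPM in KO and 15900 to 21400 CPM in WT at 12 weeks. Of these markers 8 of 10, Lrp2 among them, fell in KO at each duration. Macrophage markers (8 of 8 higher in KO at each duration) and fibroblast markers (7 of 7) moved the other way. In bulk tissue, fewer cells of a type and less RNA per cell cannot be told apart, and the part of these shifts in the results on lipogenic genes was not tested.

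Some libraries stood apart in adipocyte RNA. The summed level of 9 adipocyte markers other than Fabp4, which endothelial cells also express, reached at least 25 CPM in 6 libraries. These were KO replicates 1, 2, 4 and 5 at 12 weeks (81.6, 30.3, 237 and 79.2 CPM) and WT replicates 1 and 4 at 2 weeks (30.7 and 76.1 CPM). The sum ran from 0.57 to 16.1 CPM in KO at 2 weeks, from 0.186 to 76.1 CPM in WT at 2 weeks, from 0.164 to 237 CPM in KO at 12 weeks and from 0.0838 to 14.5 CPM in WT at 12 weeks. None of the 10 adipocyte markers, Fabp4 included, was at 0 in every library of a group. At 12 weeks 7 of the 9 tested markers were called higher in KO, with a median log2 fold change of 4.18 against 0 over all genes. At 2 weeks their median was -0.95, and 0 of 9 were called, and likewise 0 at an unadjusted p under 0.05 (edgeR). Many tests on the members, and counts of the gene lists around the pathway, are therefore given with and without these 6 libraries, alternatives that were chosen after the data were seen. A test given once includes these libraries. Leaving them out did not balance adipocyte RNA between the genotypes. The median log2 fold change of the 9 tested markers was then 1.26 at 2 weeks (1 called higher) and -3.02 at 12 weeks (0 called). Among the libraries kept, the sum still reached 16.1 CPM in KO at 2 weeks and 14.5 CPM in WT at 12 weeks.

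Per kilobase of exon, Scd1 had the highest group mean of the 10 in every group and Acaca the lowest. Acaca has the longest annotated exon length of the 10, 17.07 kb, and shares sequence with other genes as given above. Without division by length, Elovl6 averaged less than Acaca in WT at 12 weeks (16 against 22.8 CPM), but more in KO at 2 weeks (26.7 against 23.8 CPM). Scd1, the desaturase that makes oleate from stearate, averaged 41.5 ± 12.4 CPM per kb in KO and 49.4 ± 14.1 in WT at 2 weeks, and 74.6 ± 37 in KO and 43.1 ± 17.2 in WT at 12 weeks (SD). Acaca, which encodes the cytosolic acetyl-CoA carboxylase, averaged 1.4 ± 0.159 CPM per kb in KO and 1.77 ± 0.231 in WT at 2 weeks, and 1.47 ± 0.502 in KO and 1.34 ± 0.148 in WT at 12 weeks. Between these, by group mean, were Acly and Fads2 (25.7 to 35.5 CPM per kb), Scd2 and Fads1 (15.4 to 24.2), Srebf1 (10.3 to 11.6), Fasn (6.67 to 9.84), and Elovl6 with Acacb (2.49 to 4.59). Some neighbours in this order overlapped and others did not. In KO at 2 weeks Srebf1 (6.89 to 11.7 CPM per kb) lay wholly below Fads1 (18.3 to 24.4). At 12 weeks the lowest Scd1 value, 25.8 CPM per kb in KO and 23.1 in WT, lay below every Acly value of its group. The group ranges of Acly and Fads2 overlapped at both durations, and so did those of Scd2 and Fads1 in KO at 12 weeks.

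**Figure D1:**
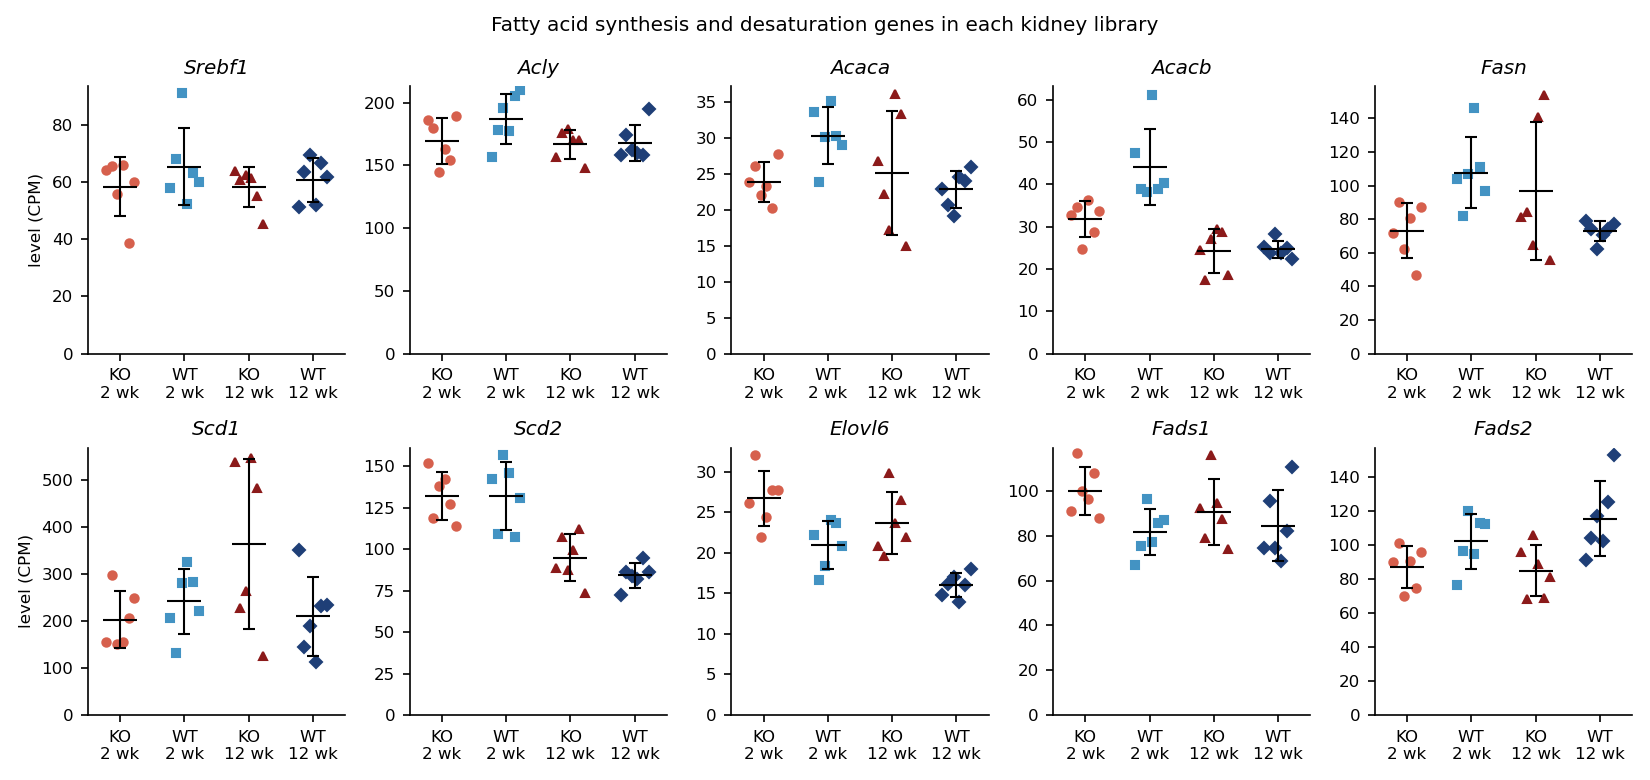
Level in CPM of the 10 genes in each of the 24 libraries, with KO to the left of WT at 2 weeks and again at 12 weeks. Bars show mean ± SD over 6 libraries. Elovl6 separates KO from WT fully at 12 weeks, Acacb separates them at 2 weeks, and Scd1, Fasn and Acaca spread most in KO at 12 weeks.

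After 2 weeks members of the pathway moved in both directions. The genes for malonyl-CoA and palmitate synthesis, Acaca, Acacb and Fasn, fell in KO kidneys to 0.787, 0.720 and 0.679 of their WT means. The elongase gene Elovl6 and the desaturase gene Fads1 rose to 1.27 and 1.23 times WT means. In all, 5 of 10 members passed the test (2 higher, 3 lower). Over all 17286 genes tested, 31.6% passed, 18.2% as higher and 13.4% as lower (edgeR, adjusted p under 0.05). The median log2 fold change of the 10 was -0.17, against -0.01 over all tested genes.

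Acacb encodes the acetyl-CoA carboxylase at the mitochondrial outer membrane, whose malonyl-CoA restrains the import of fatty acids for oxidation. Its level was 24.7, 33.3 and 36.3 CPM (lowest, median and highest) in KO and 38.2, 39.7 and 61.1 CPM in WT. The groups did not overlap, as for 16.6% of all genes, and Acacb was the 1 member of which this held at 2 weeks. Its log2 fold change was -0.45 (SE 0.12, edgeR adjusted p = 0.0066). Without the WT library that read 61.1 CPM, replicate 4, it was -0.33 (edgeR adjusted p = 0.014).

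Fasn encodes fatty acid synthase, the multienzyme that builds palmitate from malonyl-CoA. Its level was 47, 76.1 and 90 CPM in KO and 82, 106 and 146 CPM in WT, so the groups overlapped between 82 and 90 CPM. The log2 fold change of Fasn was -0.53 (SE 0.15, edgeR adjusted p = 0.016). Acaca read 20.2, 23.5 and 27.7 CPM in KO and 23.8, 30.2 and 35.1 CPM in WT. It fell by 0.32 on the log2 scale (SE 0.10, edgeR adjusted p = 0.015), a call lost when all 24 libraries were fitted together (edgeR adjusted p = 0.085). The Fasn call was lost when no filter on low counts was applied (edgeR adjusted p = 0.054).

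The same comparison without the 2 WT libraries with adipocyte RNA gave smaller differences for all 3, and 3 of 10 members passed (1 higher, 2 lower), against 28.3% of all genes. In that set the adipocyte markers lay on the higher side in KO (median log2 fold change 1.26). Acacb stayed lower (log2 fold change -0.28, edgeR adjusted p = 0.047). Fasn (-0.42, edgeR adjusted p = 0.061) and Acaca (-0.23, edgeR adjusted p = 0.12) no longer passed. With the adipocyte marker level as a covariate instead, all 3 stayed lower, at -0.44 for Acacb, -0.55 for Fasn and -0.32 for Acaca (edgeR adjusted p = 0.0018, 0.001 and 0.0054). Fasn was lowest in KO replicate 5 (47 CPM), where the sum was 0.57 CPM, and WT replicate 6 read 96.6 CPM of Fasn at a sum of 0.186 CPM. Other libraries went the other way. WT replicate 2 read 82 CPM of Fasn at a sum of 2.39 CPM, below KO replicate 2 with 90 CPM at a sum of 11.6 CPM.

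Elovl6 encodes the elongase that turns palmitate into stearate. Its level at 2 weeks was 22, 27 and 32.1 CPM in KO and 16.7, 21.6 and 24 CPM in WT, with an overlap between 22 and 24 CPM. The log2 fold change was 0.37 (SE 0.10, edgeR adjusted p = 0.009). Without the libraries with adipocyte RNA it was 0.44 (edgeR adjusted p = 0.011).

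Fads1 encodes the desaturase that completes arachidonic acid from the linoleic acid series. It read 88, 98.3 and 117 CPM in KO and 67.2, 81.6 and 96.3 CPM in WT at 2 weeks (log2 fold change 0.32, SE 0.09, edgeR adjusted p = 0.0097). This call was lost once the libraries with adipocyte RNA were left out (0.23, edgeR adjusted p = 0.08). Fads2 encodes the desaturase that opens that series. It lay on the other side of 0, with 70, 90.1 and 101 CPM in KO and 76.3, 104 and 120 CPM in WT (log2 fold change -0.20, SE 0.11, edgeR adjusted p = 0.16). Fads2 passed the test when WT replicate 1 was left out (-0.27, edgeR adjusted p = 0.042) and without both libraries with adipocyte RNA (-0.33, edgeR adjusted p = 0.028).

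The other members did not pass at 2 weeks, and their groups overlapped. Srebf1, the regulator of the pathway, read 38.8, 62.1 and 65.9 CPM in KO and 52.4, 61.6 and 91 CPM in WT (log2 fold change -0.14, SE 0.14, edgeR adjusted p = 0.5). Acly, whose product cleaves citrate into cytosolic acetyl-CoA, read 145, 171 and 189 CPM in KO and 157, 187 and 210 CPM in WT (-0.12, SE 0.09, edgeR adjusted p = 0.33). Scd1, whose product makes oleate, read 152, 181 and 298 CPM in KO and 133, 252 and 325 CPM in WT (-0.23, SE 0.23, edgeR adjusted p = 0.49). Scd2, a second stearoyl-CoA desaturase, read 114, 133 and 152 CPM in KO and 107, 136 and 157 CPM in WT (0.03, SE 0.10, edgeR adjusted p = 0.86).

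**Figure D2:**
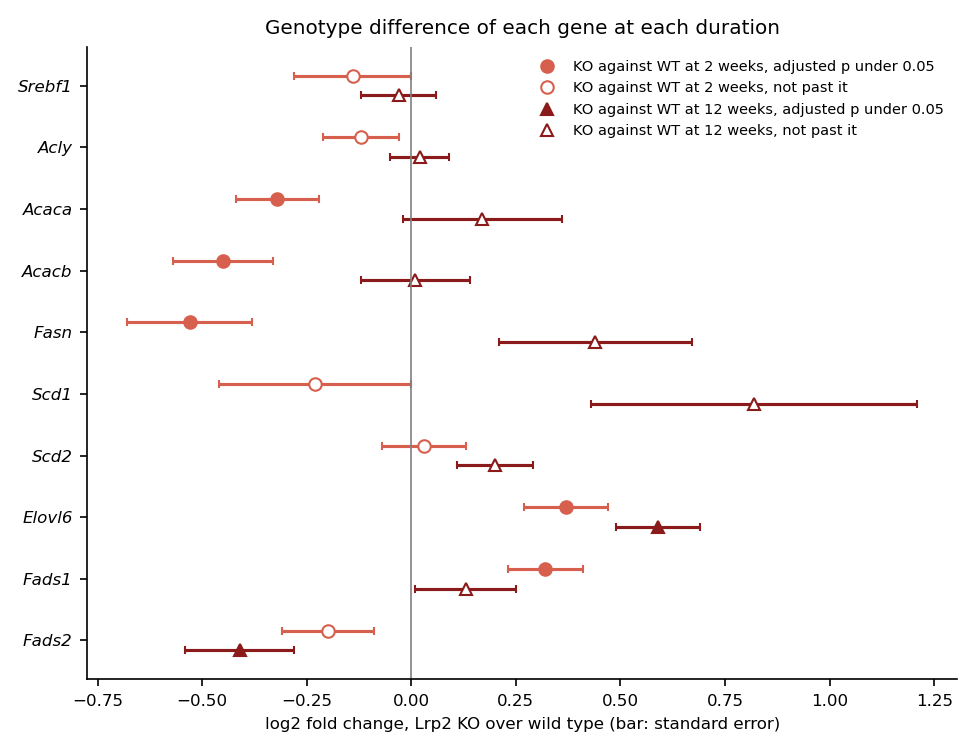
Log2 fold change of KO over WT with its standard error for the 10 genes, at 2 weeks (circles) and 12 weeks (triangles); filled symbols passed edgeR at an adjusted p under 0.05. Acaca, Acacb and Fasn lie below 0 at 2 weeks, and Elovl6 lies above 0 at both durations.

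After 12 weeks Elovl6 was higher and Fads2 lower in KO, and the other 8 members did not pass. The background was 38.5% of genes called, 20.7% higher and 17.7% lower (edgeR adjusted p under 0.05). The members' median log2 fold change was 0.15, against 0 over all genes. Elovl6 read 19.6, 22.8 and 29.8 CPM in KO and 14, 16.2 and 18 CPM in WT. The groups did not overlap, as for 18.4% of all genes, and Elovl6 was the 1 member of which this held. Its log2 fold change was 0.59 (SE 0.10, edgeR adjusted p = 0.00051). It lay between 0.52 and 0.64 with each library left out in turn, passing every time, and at 0.72 without the 4 KO libraries with adipocyte RNA (edgeR adjusted p = 0.0041, 2 KO libraries left).

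Fads2 read 68.4, 84.9 and 106 CPM in KO and 91, 111 and 153 CPM in WT at 12 weeks (log2 fold change -0.41, SE 0.13, edgeR adjusted p = 0.023). Values of both groups lay between 91 and 106 CPM. The call was lost without KO replicate 5 (-0.36, edgeR adjusted p = 0.054) or WT replicate 6 (-0.32, edgeR adjusted p = 0.052), and without the 4 KO libraries with adipocyte RNA (-0.27, edgeR adjusted p = 0.38) or with the covariate (-0.29, edgeR adjusted p = 0.21). Fads1 read 74.3, 90 and 116 CPM in KO and 68.9, 78.5 and 111 CPM in WT (0.13, SE 0.12, edgeR adjusted p = 0.43).

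Fasn and Acaca were spread wider in KO than in WT at 12 weeks, and Scd1 varied widely in both genotypes. Scd1 read 539, 227, 265, 548, 483 and 126 CPM in KO replicates 1 to 6, and 352, 144, 190, 113, 232 and 234 CPM in WT replicates 1 to 6. Fasn read 81.1, 84.4, 64.9, 141, 154 and 55.5 CPM in KO replicates 1 to 6, and between 62.4 and 79.2 CPM in WT. Acaca read 26.8, 22.2, 17.1, 36.1, 33.3 and 14.9 CPM in KO, and between 19.1 and 25.9 CPM in WT. For Fasn and Acaca the 4 KO libraries with adipocyte RNA, replicates 1, 2, 4 and 5, were the 4 highest, and the 2 others were the lowest.

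None of these differences passed. The log2 fold change was 0.82 for Scd1 (SE 0.39, edgeR adjusted p = 0.12), 0.44 for Fasn (SE 0.23, edgeR adjusted p = 0.16) and 0.17 for Acaca (SE 0.19, edgeR adjusted p = 0.54). Without KO replicate 6, Scd1 passed (edgeR adjusted p = 0.034), and so did Scd2 (0.26, edgeR adjusted p = 0.026). Without the 4 KO libraries with adipocyte RNA, all 3 turned below 0: -0.08 for Scd1 (edgeR adjusted p = 0.95), -0.25 for Fasn (edgeR adjusted p = 0.16) and -0.48 for Acaca (edgeR adjusted p = 0.034, past the threshold). Only 2 KO libraries then remained, and 2 of 10 members passed, against 13.2% of all genes. The adipocyte markers then lay on the lower side in KO (median log2 fold change -3.02).

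**Figure D3:**
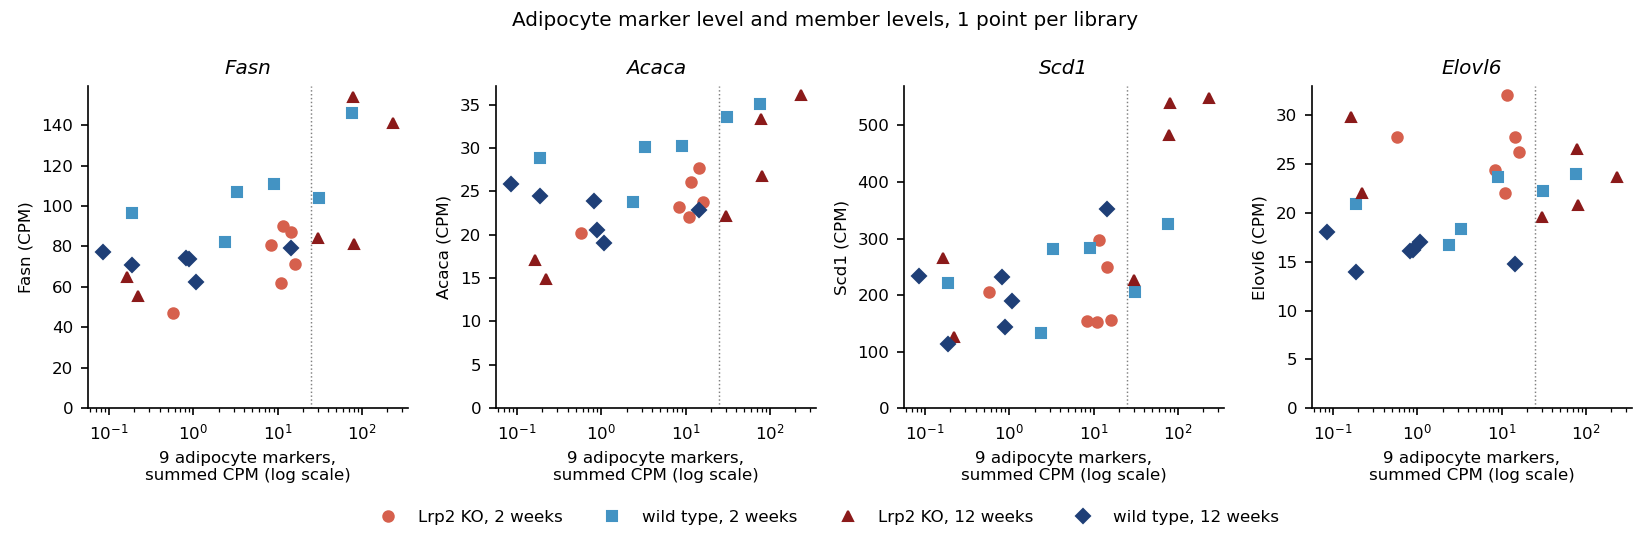
Level of Fasn, Acaca, Scd1 and Elovl6 (CPM) against the summed CPM of 9 adipocyte markers on a log axis, 1 point per library; the dotted line is at 25 CPM. At 12 weeks the KO libraries to the right of the line include those with the highest Fasn, Acaca and Scd1, whereas the highest 12-week Elovl6 value is in a KO library near the left edge.

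The remaining members overlapped between the groups at 12 weeks. Srebf1 read 45.2, 61 and 64 CPM in KO and 51.2, 62.7 and 69.5 CPM in WT (log2 fold change -0.03, SE 0.09, edgeR adjusted p = 0.81). Acly read 148, 170 and 179 CPM in KO and 158, 161 and 195 CPM in WT (0.02, SE 0.07, edgeR adjusted p = 0.85). These 2 genes stand at the head of the pathway. Acacb read 17.3, 25.8 and 29.4 CPM in KO and 22.3, 24.3 and 28.2 CPM in WT (0.01, SE 0.13, edgeR adjusted p = 0.97). Scd2 read 73.5, 94.1 and 112 CPM in KO and 72.2, 84.9 and 94.8 CPM in WT (0.20, SE 0.09, edgeR adjusted p = 0.11).

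Whether the genotype difference depended on duration was tested as an interaction over all 24 libraries. By edgeR 0 of 10 members passed, against a background of 0.174% of genes (0.116% higher and 0.0579% lower at 12 weeks). At an unadjusted p under 0.05, where 10.6% of all genes lay, there were 4, Fasn (difference of log2 fold changes 0.97, SE 0.30, edgeR adjusted p = 0.2), Scd1 (1.04, SE 0.47, edgeR adjusted p = 0.43), Acaca (0.48, SE 0.22, edgeR adjusted p = 0.44) and Acacb (0.46, SE 0.18, edgeR adjusted p = 0.35). DESeq2 called 1 member, Fasn (0.98, SE 0.28, DESeq2 adjusted p = 0.048). Without the 6 libraries with adipocyte RNA the Fasn interaction was 0.17 and that of Acaca -0.26, and neither passed (edgeR adjusted p = 1 for both). Elovl6 had an interaction of 0.22 (SE 0.15, edgeR adjusted p = 0.64).

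The balance between Fads1 and Fads2, which act in turn on the same fatty acids and lie near each other on chromosome 19, lay further toward Fads1 in KO at both durations. This ratio was chosen with the direction of both genes at 2 weeks already known, so its 2-week values are a description. The log2 ratio of Fads1 to Fads2 counts within a library is free of library scaling. At 2 weeks it was -0.12, 0.15 and 0.53 in KO (lowest, median and highest) and -0.4, -0.33 and -0.18 in WT, with no overlap. The difference was 0.53 (SE 0.11). At 12 weeks it was -0.12, 0.11 and 0.36 in KO and -0.65, -0.51 and -0.12 in WT, where the groups met at -0.12. The difference was 0.55 (SE 0.11, two-sided exact permutation p = 0.00433, where the smallest p that 6 against 6 libraries allow is 0.00216). Adjusted over 6 ratio tests, the exact permutation p was 0.013, a value that depends on the 2-week test of the same ratio. The pair was chosen with earlier results of these data known, so the 12-week p is no independent test either.

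Leaving out the libraries with adipocyte RNA left 0.57 at 2 weeks and 0.45 at 12 weeks (exact permutation p = 0.071, 2 KO against 6 WT libraries). At 12 weeks the groups still met at -0.12 in that set. The ratio of Scd1 to Scd2 differed by -0.26 at 2 weeks (exact permutation p = 0.364, adjusted 0.436) and by 0.54 at 12 weeks (exact permutation p = 0.203, adjusted 0.383). The ratio of Acaca to Acacb differed by 0.12 at both durations (exact permutation p = 0.255 and 0.561, adjusted 0.383 and 0.561). Neither pair passed.

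**Figure D4:**
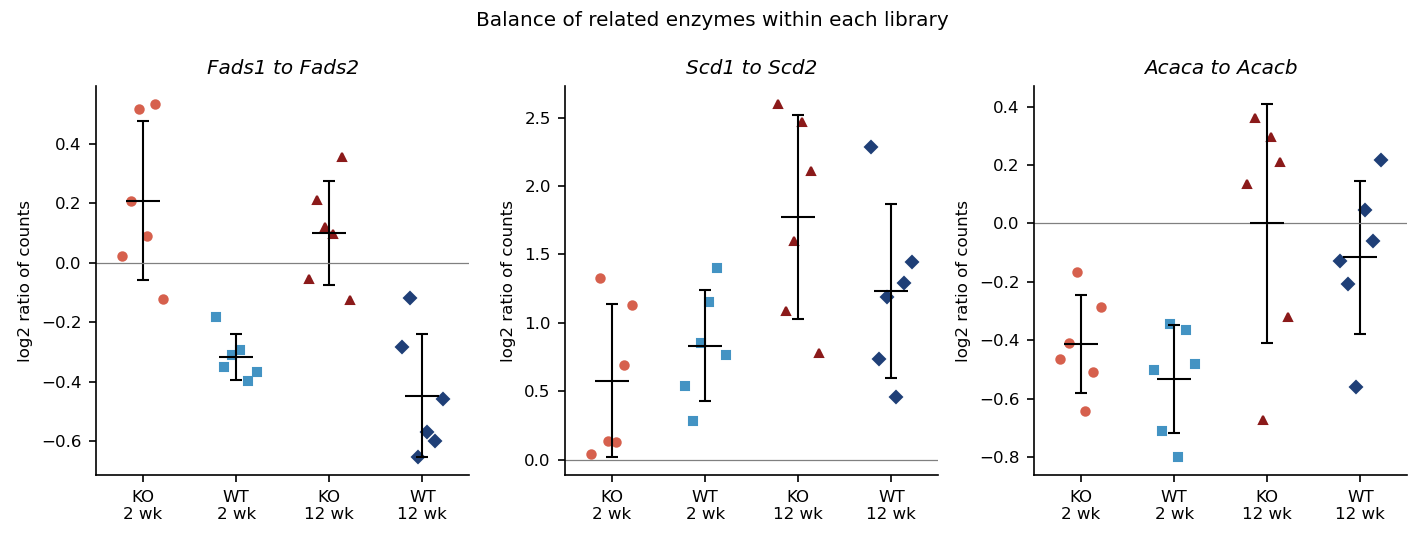
Log2 ratio of counts within each library for Fads1 to Fads2, Scd1 to Scd2 and Acaca to Acacb, with mean ± SD over 6 libraries. The 6 KO libraries at 2 weeks all lie above the 6 WT libraries for Fads1 to Fads2, and the other pairs overlap.

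Between durations, every member that passed was lower at 12 weeks. In KO 2 of 10 were lower at 12 than at 2 weeks, against a background of 33.8% of genes (17.7% higher and 16.1% lower). In WT 4 of 10 were lower, against 30.4% (15.8% higher and 14.7% lower). Scd2 fell in both, by 0.48 on the log2 scale in KO (SE 0.10, edgeR adjusted p = 0.00061) and by 0.65 in WT (SE 0.10, edgeR adjusted p = 1.6e-05). Its values at 12 weeks, 73.5 to 112 CPM in KO and 72.2 to 94.8 CPM in WT, lay below all 2-week values of the same genotype, the lowest of which were 114 CPM in KO and 107 CPM in WT.

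Acacb also fell in both, by 0.39 in KO (SE 0.13, edgeR adjusted p = 0.021) and by 0.84 in WT (SE 0.13, edgeR adjusted p = 1.2e-05). In KO the Acacb call was lost without KO replicate 2 or 6 at 12 weeks or KO replicate 4 at 2 weeks (edgeR adjusted p = 0.066, 0.06 and 0.058). In WT, Fasn (-0.56, SE 0.21, edgeR adjusted p = 0.047) and Elovl6 (-0.39, SE 0.11, edgeR adjusted p = 0.0083) were lower as well. Without the 6 libraries with adipocyte RNA, 3 members in KO and 6 in WT were called, all lower, against 13.5% of all genes in KO (7.17% higher and 6.35% lower) and 22.5% in WT (11% higher and 11.6% lower). The Fasn call was lost in 12 of 24 fits with 1 library left out. Acaca in WT (-0.41, SE 0.16, edgeR adjusted p = 0.05) and Scd1 in KO (0.85, SE 0.33, edgeR adjusted p = 0.053) missed the threshold and passed in 13 and 7 of those 24 fits. The durations differ in depth as given above, so diet duration, age and the making of the libraries cannot be told apart here.

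Within groups, the 10 genes formed no single block. After removal of each group's mean, log2 CPM of Acaca and Fasn had a Pearson r of 0.89 over the 24 libraries, Acaca and Scd1 0.72, and Fasn and Scd1 0.65. Fads1 and Fads2 had r = 0.64, and Acly followed Fads2 (0.64) and Fads1 (0.51). Between Fasn or Acaca and the Fads genes r was lower, as for Fasn with Fads2 (0.00) and Fasn with Fads1 (0.05), while Scd1 with Fads1 reached 0.34. Srebf1 had r = 0.24 with Fasn, 0.14 with Acaca and 0.54 with Fads2. These points share library, depth and scaling, and are given as a description.

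**Figure D5:**
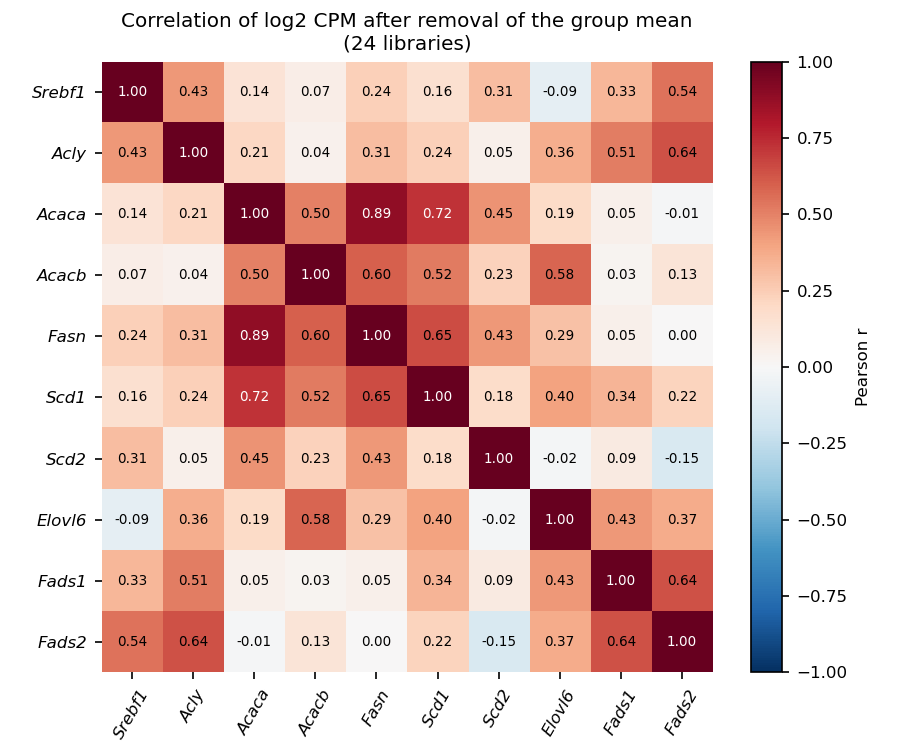
Pearson r between the 10 genes over 24 libraries, from log2 CPM with the mean of each group subtracted. Acaca, Fasn and Scd1 have r of at least 0.65 with each other and Fads1, Fads2 and Acly r of at least 0.51, and between these sets r is at most 0.34.

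The genes outside the set with the residual pattern most like that of a member are given with their r over the 24 libraries. For Fasn they were Thrsp (r = 0.83), a lipogenic gene of fat and liver, and the brown adipocyte genes Cidea (0.83) and Ucp1 (0.80). For Acaca they were Thrsp (0.83), Cidea (0.82) and Adrb3 (0.79), the adipocyte beta-adrenergic receptor gene. For Scd1 they were the lipid droplet gene Plin4 (0.75), Maob (0.72) and Cav1 (0.71). For Fads2 they were the aconitase gene Aco1 (0.97), Wbp2 (0.94) and Pdk2 (0.94), a pyruvate dehydrogenase kinase gene. For Fads1 they were Phf14 (0.88), Eif2ak1 (0.85) and Rab7 (0.84).

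For Acly the nearest genes were Arhgap1 (0.82), Adra1a (0.82) and Actn4 (0.80), and for Srebf1 Susd3 (0.79), Clpp (0.77) and Fem1a (0.77). For Elovl6 they were Scnn1g (0.76), a subunit gene of the collecting duct sodium channel, Atp4a (0.74) and Arfgef2 (0.72). For Scd2 they were Haus4 (0.76), Artn (0.75) and Nup93 (0.73), and for Acacb Aifm2 (0.76), Slc4a9 (0.68) and Tdrd12 (0.67). Of the 10 adipocyte markers, Ucp1 was among the 3 nearest of Fasn and Adrb3 among those of Acaca, and none was among those of the other 8 members.

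Of all genes, 18.2% were called higher and 13.4% lower in KO at 2 weeks, and 20.7% and 17.7% at 12 weeks, and 3 lists of genes around the pathway are set against these shares. With the libraries with adipocyte RNA left out these shares were 16.3% and 12% at 2 weeks and 9% and 4.2% at 12 weeks. Proximal tubule markers were called lower in 8 of 10 cases at each duration, and their part in these counts was not tested. Of 16 regulators of lipogenic transcription, 0 rose and 3 fell at 2 weeks, and 1 rose and 6 fell at 12 weeks (median log2 fold change -0.16 and -0.11). Without the libraries with adipocyte RNA 0 rose and 4 fell at 2 weeks, and 0 rose and 1 fell at 12 weeks. At 2 weeks the called genes were Ppargc1b (-0.88, edgeR adjusted p = 0.00012), a coactivator that works with SREBP-1, Mlxipl (-0.45, edgeR adjusted p = 0.0025), which encodes the glucose-sensing factor ChREBP, and the nuclear receptor gene Rxra (-0.34, edgeR adjusted p = 0.0078). At 12 weeks Mlxipl (-0.52, edgeR adjusted p = 0.0032) and Rxra (-0.38, edgeR adjusted p = 0.0033) were lower again, with Mlx (-0.42, edgeR adjusted p = 0.00015), the partner of ChREBP, and without those libraries the calls of Mlxipl and Rxra at 12 weeks were lost (edgeR adjusted p = 0.2 and 0.078).

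Of 12 genes that supply acetyl-CoA, citrate and NADPH, 2 rose and 5 fell at 2 weeks, and 2 rose and 7 fell at 12 weeks (median -0.13 and -0.25). When the libraries with adipocyte RNA were left out 2 rose and 5 fell at 2 weeks, and 0 rose and 2 fell at 12 weeks. Mlycd, the malonyl-CoA decarboxylase gene, fell at both durations (-0.54 and -0.46, edgeR adjusted p = 0.00014 and 0.00056). So did Pdha1, a subunit gene of pyruvate dehydrogenase (-0.51 and -0.47, edgeR adjusted p = 0.00018 and 0.0019), though its 12-week call was lost without those libraries (edgeR adjusted p = 0.065). The acetate-activating gene Acss2 fell at 2 weeks (-0.52, edgeR adjusted p = 0.00045) and the malic enzyme gene Me1 at 12 weeks (-0.58, edgeR adjusted p = 0.00043). By group mean both were lower in KO at the other duration too. Acss2 averaged 267 CPM in KO and 403 in WT at 12 weeks, and Me1 455 and 625 at 2 weeks. The genes that rose at both durations were G6pdx and Pgd, named after their values were seen, which encode NADPH-making enzymes of the pentose phosphate pathway; both 12-week calls were lost without those libraries (edgeR adjusted p = 0.061 and 0.18). Acss2, Pdha1, G6pdx, Mlx, Mlxipl and Hacd4 share between 1.9% and 19.3% of their exonic bases with a gene on the opposite strand, so their values are uncertain to that extent.

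Among 13 tested genes of other elongation and desaturation enzymes, 1 rose and 3 fell at 2 weeks, and 1 rose and 7 fell at 12 weeks (median -0.17 and -0.26). After those libraries were left out 1 rose and 4 fell at 2 weeks, and 1 rose and 3 fell at 12 weeks. Hacd4, a dehydratase gene of the elongation cycle, rose at both durations (0.96 and 1.14, edgeR adjusted p = 4.2e-05 and 0.00023). Fads6 (-0.79, edgeR adjusted p = 1.1e-05) and Hacd3 (-0.20, edgeR adjusted p = 0.022) fell at 2 weeks. Hsd17b12, the reductase gene of the elongation cycle (-0.42, edgeR adjusted p = 0.00018), and Degs1 (-0.38, edgeR adjusted p = 0.0012) fell at 12 weeks. By group mean Fads6, Hacd3, Hsd17b12 and Degs1 lay below WT at the other duration too. Hacd3 averaged 58.1 CPM in KO and 70.9 in WT at 12 weeks, and Hsd17b12 77.6 and 89.8 at 2 weeks. Elovl6 rose at both durations beside a list in which most called genes fell.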

How the data were processed

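Bulk RNA sequencing of 24 mouse kidney libraries (NEBNext Ultra kit, per the labels) was analysed from raw read counts per Ensembl gene as deposited by the authors, 1 library per file, without normalization. Per the submitters' processing notes, fastp, STAR 2.5, HTSeq 0.6.1 and build mm10 were used; no source used here gives options, strand setting or annotation release. Of 54532 identifiers, 54495 matched GENCODE M21, used for symbols, exon lengths and overlaps; the others held at most 0.00528% of a library's counts.

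The test was edgeR's robust quasi-likelihood test (edgeR 4.0.16, R 4.3.3) after TMM scaling. The 17286 genes kept by filterByExpr (minimum count 10, minimum total 15) were tested two-sided, with Benjamini-Hochberg adjustment over all of them and a threshold of 0.05. Genotype was fitted on the 12 libraries of each duration, interaction and duration on all 24. SE is the absolute log2 fold change over the square root of F. Ratios were compared by exact permutation of libraries. Residual correlations used log2 CPM (prior count 2). The procedure was tested on simulated data. No 2 libraries were duplicates. The labels do not say whether replicate numbers pair libraries, and the main fits used no pairing. Residual correlations of equal numbers ran from -0.1 to 0.17. They were not compared with unequal numbers and cannot settle the question. Figures were drawn with Python and matplotlib.

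The members, gene lists and ratio pairs were chosen with earlier results of these data known. Other genes are named by rule: per list and genotype comparison, the 3 called genes with the smallest adjusted p, and per member the 3 most correlated genes with a mean of at least 1 CPM and no predicted-gene name. A gene named at 1 duration may therefore have moved the same way at the other. Some genes this rule selects are not reported here. The other settings tried were a replicate block, each library left out, other library sets per fit, filters (none, or a mean of 1 CPM), upper-quartile and RLE scaling, and DESeq2 1.42.0. Leaving out 6 libraries with adipocyte RNA, and that marker level as a covariate, were added after seeing the data.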

Additional observations from a re-analysis of the deposited data

How the results depend on the processing

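The genotype call of Elovl6 at both durations, and that of Acacb at 2 weeks, passed under every alternative run. The labels do not say whether replicate numbers pair libraries. With replicate number as a block, 5 members passed at 2 weeks, 2 at 12 weeks, 0 in the interaction, and 2 in KO and 4 in WT between durations. The shares of all genes under the block are not given here. In the main fits they were 31.6%, 38.5%, 0.174%, 33.8% and 30.4%, in the same order. Under the block Acacb at 12 weeks turned to -0.02, and between durations in WT Fasn was lost (edgeR adjusted p = 0.057) and Acaca gained (0.047). Without the libraries with adipocyte RNA, 3 members passed at 2 weeks; with the covariate, 1 at 12 weeks. Genes called at 12 weeks were 3587 with the covariate and 2282 without those libraries, where 2 KO libraries were left; the interaction called 12 and 3, and duration in KO 2336 without them. DESeq2 called 1 member and 154 genes in the interaction. With all 24 libraries in 1 fit, Acly (-0.01) and Acacb (-0.02) reversed at 12 weeks.

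Without the libraries with adipocyte RNA, the 12-week log2 fold change was -0.01 for Acly, -0.48 for Acaca, -0.07 for Acacb, -0.25 for Fasn, -0.08 for Scd1 and -0.03 for Scd2. The interaction was then -0.26 for Acaca, -0.12 for Scd2 and 0.06 for Fads2. Duration in KO was -0.58 for Acaca, -0.29 for Fasn, -0.06 for Scd1 and 0.1 for Fads2, and in WT -0.05 for Fads1. The 12-week ratios were -0.04 for Scd1 to Scd2, -0.38 for Acaca to Acacb and 0.45 for Fads1 to Fads2. With the covariate, Acaca (-0.3), Acacb (-0.11) and Fasn (-0.08) reversed at 12 weeks, Acaca (-0.1) between durations in KO, and Scd1 (0.08) and Fads1 (0) in WT. The cause was not tested.

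With 1 library left out, members called ran from 1 to 4 at 12 weeks and from 1 to 3 between durations in KO, and interaction genes from 22 (without KO replicate 6 at 12 weeks or replicate 4 at 2 weeks) to 56 (without KO replicate 3 at 12 weeks). Log2 fold changes crossed 0 for Scd2 at 2 weeks (-0.02 to 0.09) and, at 12 weeks, for Srebf1 (-0.08 to 0.03), Acacb (-0.05 to 0.09) and Acly (0 to 0.06). They did so for Srebf1 in the interaction (-0.02 to 0.16). Between durations they did so in KO for Srebf1 (-0.1 to 0.06), Acly (-0.07 to 0.01), Acaca (-0.05 to 0.19) and Fads2 (-0.11 to 0.02), and in WT for Srebf1 (-0.17 to 0.01) and Fads1 (-0.05 to 0.11). None of these was called. The lowest counts of a member in any library were 150 for Elovl6 and 194 for Acaca. Precision did not follow counts alone: the SE of the 12-week genotype difference was 0.10 for Elovl6 and 0.39 for Scd1.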

Other observations

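Over all genes, 18.2% were called higher and 13.4% lower in KO at 2 weeks, and 20.7% and 17.7% at 12 weeks. Of 14 tested genes of uptake and activation, 2 rose and 5 fell at 2 weeks, and 2 rose and 6 fell at 12 weeks (2 and 3, and 1 and 3, without the libraries with adipocyte RNA). Acsl5, an acyl-CoA synthetase gene, rose at both durations (log2 fold change 0.44 and 0.62, edgeR adjusted p = 0.0019 and 0.00012). Acsl1, another synthetase gene, fell at 2 weeks (-0.95, edgeR adjusted p = 6e-07), where Acsl4 rose (0.33, edgeR adjusted p = 0.0076). At 12 weeks Lpl, the lipoprotein lipase gene (-0.97, edgeR adjusted p = 4.1e-05), and the fatty acid receptor gene Cd36 (-0.49, edgeR adjusted p = 0.0019) were lower. By group mean Acsl1, Acsl4, Lpl and Cd36 lay on the same side of WT at the other duration. Acsl1 averaged 146 CPM in KO and 209 in WT at 12 weeks, and Lpl 492 and 1010 at 2 weeks.

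Of 24 genes of triglyceride synthesis and lipid droplets, 0 rose and 8 fell at 2 weeks, and 4 rose and 6 fell at 12 weeks (0 and 9, and 0 and 4, without the libraries with adipocyte RNA). Agpat3, an acyltransferase gene, fell at both durations (-0.48 and -0.45, edgeR adjusted p = 0.00025 and 0.0013), and its 12-week call was lost without those libraries (edgeR adjusted p = 0.067). Lpin2 (-0.28) and Fitm2 (-0.39) fell at 2 weeks (edgeR adjusted p = 0.0015 for both), and Lpin1 (-0.57, edgeR adjusted p = 0.00036) and Cideb (-0.54, edgeR adjusted p = 0.0014) at 12 weeks. The 4 that rose at 12 weeks were Plin4, Cidea, Lipe and Cidec, named after their values were seen, and Cidec is also on the adipocyte marker list. None of these 4 passed at 12 weeks without the KO libraries with adipocyte RNA (edgeR adjusted p = 0.86, 0.37, 0.49 and 0.31). Cidea read 2.09, 4.67, 25.5 and 12.3 CPM in KO replicates 1, 2, 4 and 5, which carry that RNA, and 0.082 and 0.0725 CPM in KO replicates 3 and 6, against 0.0838 to 1.17 CPM in WT.

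Of 15 sterol synthesis genes driven by SREBP-2, 3 rose and 3 fell at 2 weeks, and 1 rose and 5 fell at 12 weeks (2 and 4, and 1 and 1, without the libraries with adipocyte RNA). Fdft1, the squalene synthase gene (0.46, edgeR adjusted p = 0.0014), rose at 2 weeks, where Cyp51 fell (-0.44, edgeR adjusted p = 0.0039). At 12 weeks Mvd (-0.38, edgeR adjusted p = 0.006) and Sc5d (-0.44, edgeR adjusted p = 0.0063) fell, both calls being lost without those libraries (edgeR adjusted p = 0.22 and 0.24). Values of Cideb are uncertain, since 76.3% of its exonic bases are shared with Nop9 on the opposite strand, and those of Fdft1, Acsl1 and Acsl5 to a lesser extent (8.3% to 18.3% shared with another gene).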
